A study of Homo sapiens with 12 samples.

Results

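TXNIP, the thioredoxin-interacting protein, was followed with 7 genes of its biology across 4 states of OE33, an established human esophageal adenocarcinoma cell line. The 8 genes are TXNIP, its arrestin-domain relatives ARRDC1, ARRDC2, ARRDC3 and ARRDC4, the glucose-responsive transcription factors MLXIP (MondoA) and MLXIPL (ChREBP), and TXN, the thioredoxin that TXNIP binds. They were found by gene symbol, each in 1 row of 57500 in the table of counts, and all 8 were among the 15805 genes with enough counts to be tested. They were selected on their levels and changes in these same 12 libraries, so what follows for them is a description. No p-value is given for any of the 8.

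The shAPE1 group was made of rABS cells that stably carried a single short hairpin RNA against APE1, the product of APEX1, an enzyme that cuts DNA at abasic sites and also keeps transcription factors reduced. The shCtrl group was made of rABS cells that stably carried a non-targeting hairpin. The rABS group was the OE33 population that survived 15 days with 20 minutes of acidified bile salts a day (200 µM, pH 5.5), with no hairpin. The Parental group was untreated OE33. Each group had 3 libraries of polyadenylated RNA, described as independent biological replicates. No group was mock-treated for the 15 days, so the exposure cannot be told apart from time in culture and from the survival of some cells. All shCtrl and shAPE1 cells had also been through the exposure, and they share the rABS history.

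TXNIP is an alpha-arrestin that binds reduced thioredoxin and promotes the internalisation of the glucose transporter GLUT1. Its gene is among the most glucose-responsive known: when hexose phosphates rise, MondoA or ChREBP pairs with MLX and binds carbohydrate response elements in the promoters of TXNIP and ARRDC4. The other alpha-arrestins act as adaptors that bring ubiquitin ligases of the NEDD4 family to membrane proteins through short proline-rich motifs. Thioredoxin reduces disulphides in many proteins, APE1 among them.

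The promoters of TXNIP and ARRDC4 are shown because both genes are known targets of MondoA and ChREBP. Whether others of the 8 genes are targets was not examined. The RefSeq promoter table (GRCh38.p14) gave all 8, each a window that begins upstream of the start of the gene and ends just past it. For each of the 8 genes only the window nearest its annotated start was used, so promoters at other start sites are not covered. Both strands were searched for the E-box CACGTG, for the CCAAT box, and for the paired half-sites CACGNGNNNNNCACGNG. This last pattern repeats CACGNG in the same direction, as in TXNIP. Carbohydrate response elements with half-sites of another form or direction were not searched. The capitals mark each match, and ATTGG is CCAAT read on the other strand. The TXNIP stretch is chr1:145996580-145996729 (minus strand) and the ARRDC4 stretch is chr15:97960453-97960663 (plus strand).
TXNIP: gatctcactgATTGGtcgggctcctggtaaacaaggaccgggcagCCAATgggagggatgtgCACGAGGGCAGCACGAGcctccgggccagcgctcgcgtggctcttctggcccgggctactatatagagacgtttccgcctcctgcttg
ARRDC4: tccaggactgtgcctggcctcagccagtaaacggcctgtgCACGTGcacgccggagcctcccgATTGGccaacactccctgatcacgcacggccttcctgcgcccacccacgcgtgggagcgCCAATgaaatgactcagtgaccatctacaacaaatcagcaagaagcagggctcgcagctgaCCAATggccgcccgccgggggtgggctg

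TXNIP held the paired half-sites once, at -88 from the start, with CCAAT boxes at -140 and -105. Of 35116 promoters of the same length, 20 (0.05695%) held the paired half-sites in this form. That share does not cover carbohydrate response elements of other forms. ARRDC4 held no match to the paired half-sites and 1 E-box, at -210, with CCAAT boxes at -187, -128 and -67. The E-box was in 7.256% of promoters and the CCAAT box in 34.61%. None of the other 6 promoters held an E-box or the paired half-sites. ARRDC1, ARRDC3 and MLXIP held 1 CCAAT box each, and ARRDC2, MLXIPL and TXN none. A match is a run of letters and not a measured site of binding.

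Library totals ran from 15736087 to 23010377 counts. APEX1, which checks the hairpin, averaged 4.93 ± 0.819 CPM (counts per 1e+06 of the scaled library size; SD, n = 3) in shAPE1 and 59.8 ± 2.92 CPM in shCtrl, a fall to 8.2% (edgeR, Benjamini-Hochberg adjusted p = 3.75e-22). The exact two-sided permutation test gave p = 0.1, the smallest that 20 arrangements of 3 against 3 libraries allow. APEX1 itself was higher in rABS than in Parental, at 82.1 ± 2.28 CPM against 54.7 ± 1.99 CPM (log2 0.59 ± 0.08, SE, edgeR adjusted p = 2.23e-07). In shCtrl APEX1 was lower than in rABS, at 59.8 ± 2.92 CPM against 82.1 ± 2.28 CPM (log2 -0.46 ± 0.08, edgeR adjusted p = 3.75e-05). All 5 epithelial markers were detected, with a summed level between 9017 and 15735 CPM. Leukocyte markers summed to at most 6.52 CPM and endothelial markers to at most 0.889 CPM. Fibroblast markers summed to 3.37 to 4.18 CPM in rABS and 22.5 to 29.4 CPM in Parental, with DCN and LUM, which define fibroblasts, at 0 in both. COL1A1 alone carried this sum, the other 4 markers holding at most 3 counts each in any library. The COL1A1 level moved with the groups, and its part in the results was not tested. The sum ran from 7.27 to 8.31 CPM in shAPE1 and from 9.04 to 9.44 CPM in shCtrl.

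A gene was called as changed at a Benjamini-Hochberg adjusted p under 0.05 in edgeR's quasi-likelihood test over all genes tested, and "rose" and "fell" are used only of called genes. Between rABS and Parental, 2 of the 8 genes rose, 4 fell and 2 were not called. Over all genes tested, 59.8% were called in that comparison, 29.9% as higher in rABS and 29.9% as lower. Between shAPE1 and shCtrl, 4 of the 8 rose, 0 fell and 4 were not called. There, 36.6% of all genes tested were called, 17.8% as higher in shAPE1 and 18.8% as lower. Between shCtrl and rABS, 1 of the 8 rose, 3 fell and 4 were not called. In that comparison 36.5% of all genes tested were called, 17.9% as higher in shCtrl and 18.6% as lower. Nothing is read from these counts, since the genes were selected on the same comparisons.

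TXNIP was the member with the largest range on the CPM scale (chr1:145992435-145996600, minus strand, GRCh38). The shAPE1 libraries had 526, 549.7 and 496 CPM, the shCtrl libraries 178, 165 and 175 CPM, the rABS libraries 194, 186 and 202 CPM, and the Parental libraries 614, 688 and 667 CPM. The 4 groups formed a high pair and a low pair, and no 2 groups overlapped: Parental was the highest, shAPE1 next, then rABS, and shCtrl the lowest.

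TXNIP fell to 194 ± 8.33 CPM in rABS, against 656 ± 38.2 CPM in Parental (SD, n = 3 each), a log2 fold change of -1.76 ± 0.07 (SE) and a level 3.38-fold lower. In bulk RNA of survivors, less RNA per cell and fewer cells with much of it cannot be told apart. In shAPE1 TXNIP rose to 524 ± 26.7 CPM, against 173 ± 6.86 CPM in shCtrl, a log2 fold change of 1.60 ± 0.07 and a level 3.03-fold higher. The level in shAPE1 stayed below that of Parental, with a log2 fold change of -0.32 ± 0.07 between those groups. TXNIP was also slightly lower in shCtrl than in rABS, at -0.17 ± 0.07 on the log2 scale, a call that was lost in 11 of 20 alternative analyses. Among these were the analyses without any 1 of the shCtrl libraries, without rABS replicate 1 or 3, without shAPE1 replicate 1 and without Parental replicate 3, with values between -0.19 and -0.14. Per kilobase of exon, TXNIP stood at 145 RPKM in shAPE1, 47.6 RPKM in shCtrl, 53.5 RPKM in rABS and 181 RPKM in Parental. Even in its low pair of groups it was abundant, at percentile 94.9 of 15750 genes in shCtrl and 95.1 in rABS, beside 98.7 in both shAPE1 and Parental.

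**Figure D1:**
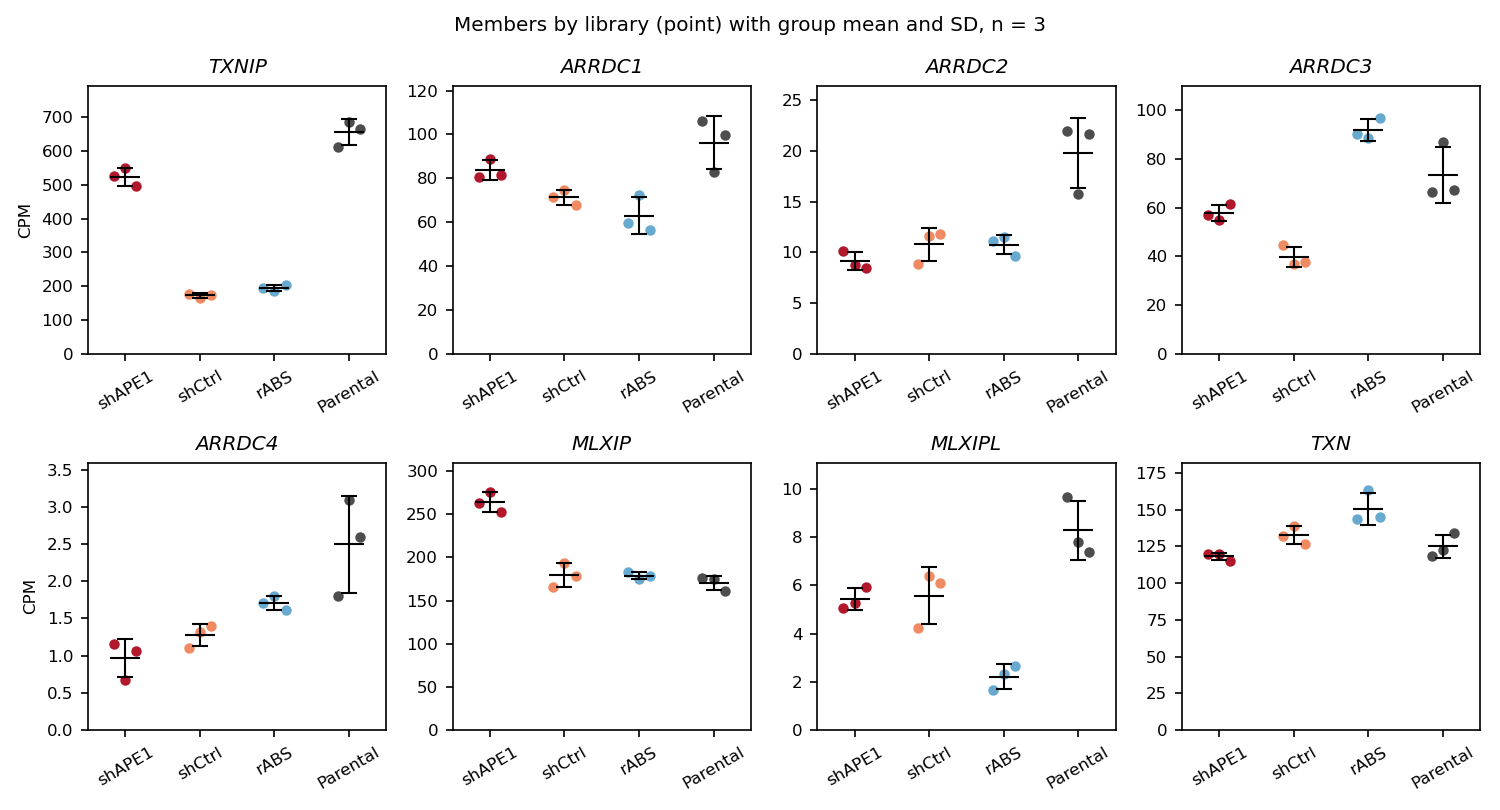
Level of each of the 8 genes in CPM (linear axis from 0) in every library, by group; each point is a library, the horizontal bar is the group mean and the whisker its SD (n = 3). TXNIP is high in shAPE1 (524 CPM) and Parental (656 CPM) and low in shCtrl (173 CPM) and rABS (194 CPM), while MLXIP is higher in shAPE1 than in the other 3 groups.

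TXN, the thioredoxin that TXNIP holds, moved far less (chr9:110243811-110256640, minus strand). It had 119.5, 119.6 and 115 CPM in shAPE1, 132, 139 and 127 CPM in shCtrl, 144, 163 and 145 CPM in rABS, and 118, 123 and 134 CPM in Parental. The rABS libraries were the highest, and Parental overlapped both shAPE1 and shCtrl. TXN rose by 0.27 ± 0.07 on the log2 scale in rABS against Parental and was not called between shAPE1 and shCtrl, at -0.17 ± 0.07, although those groups did not overlap. It fell slightly in shCtrl against rABS, at -0.18 ± 0.07, a call lost in 7 of 20 alternatives, among them those without rABS replicate 2 (-0.12), shCtrl replicate 1 (-0.18) or shCtrl replicate 3 (-0.15). Its processed pseudogenes held at most 6 counts in a library. How reads that match both TXN and those near-identical copies were counted is not given in the sources used here.

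The balance of the pair followed TXNIP. There were 4.43 ± 0.149 TXNIP counts for each TXN count in shAPE1, against 1.31 ± 0.104 in shCtrl (SD, n = 3 each). The ratio was 1.30 ± 0.137 in rABS, against 5.26 ± 0.317 in Parental. The ratio compares counts and not molecules, because the TXNIP transcript model is the longer of the 2 (3625 exon bases, against 1142 for TXN). These are levels of RNA, and the proteins were not measured.

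ARRDC1 is known to recruit the ESCRT protein TSG101 to the plasma membrane and to drive the budding of microvesicles (chr9:137605654-137615360, plus strand). It shared the direction of TXNIP, at a smaller size, in rABS against Parental and in shAPE1 against shCtrl. It had 80.5, 88.9 and 81.6 CPM in shAPE1, 71.3, 74.7 and 67.8 CPM in shCtrl, 59.7, 72.5 and 56.6 CPM in rABS, and 106, 82.6 and 99.8 CPM in Parental. Replicate 2 of Parental lay below the other two and within the range of shAPE1. ARRDC1 fell by 0.61 ± 0.09 on the log2 scale in rABS against Parental and rose by 0.23 ± 0.09 in shAPE1 against shCtrl. The second call was lost in 8 of 20 alternatives, among them the analyses without shAPE1 replicate 1, 2 or 3, without shCtrl replicate 1 or 3, without rABS replicate 1 and without Parental replicate 3, where it lay between 0.19 and 0.26. Between shCtrl and rABS it was not called, at 0.18 ± 0.09, but it was called without rABS replicate 2, at 0.29. ARRDC1 shares 29 exon bases with the antisense gene ARRDC1-AS1, which held 89 to 180 counts, and the strand setting of the counting is not given in the sources used here.

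ARRDC2 was highest in Parental and lower in all the other groups (chr19:18001132-18014102, plus strand). It had 10.1, 8.78 and 8.50 CPM in shAPE1, 8.87, 11.6 and 11.8 CPM in shCtrl, 11.1, 11.5 and 9.68 CPM in rABS, and 21.9, 15.8 and 21.6 CPM in Parental. All 3 Parental libraries lay above the 9 others, which overlapped each other. The fall in rABS against Parental was -0.87 ± 0.14 on the log2 scale. ARRDC2 was not called between shAPE1 and shCtrl, at -0.24 ± 0.14, or between shCtrl and rABS, at 0.01 ± 0.14.

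ARRDC3, studied for its part in the turnover of beta-adrenergic receptors and of integrin beta 4, was highest in rABS and lowest in shCtrl (chr5:91368724-91383359, minus strand). The shAPE1 libraries had 56.9, 55.1 and 61.5 CPM, the shCtrl libraries 44.6, 36.7 and 37.9 CPM, the rABS libraries 90.1, 88.7 and 97.0 CPM, and the Parental libraries 66.3, 86.9 and 67.5 CPM. No 2 groups overlapped. It rose by 0.32 ± 0.09 on the log2 scale in rABS against Parental, fell to 39.7 ± 4.27 CPM in shCtrl, against 91.9 ± 4.41 CPM in rABS (log2 -1.21 ± 0.09), and rose by 0.54 ± 0.09 in shAPE1 against shCtrl. The direction in shAPE1 depends on the control: set against rABS cells with no hairpin, the log2 fold change was -0.67 ± 0.09. ARRDC3 shares 145 exon bases with ARRDC3-AS1, which held at most 24 counts in a library. Vector, transduction and time since transduction differ together between shCtrl and rABS and cannot be told apart.

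ARRDC4, known like TXNIP for its response to glucose, was scarce (chr15:97960698-97973838, plus strand). It had 1.16, 0.675 and 1.06 CPM in shAPE1, 1.11, 1.32 and 1.39 CPM in shCtrl, 1.71, 1.80 and 1.61 CPM in rABS, and 1.80, 3.09 and 2.59 CPM in Parental. Counts per library ran from 12 to 66. The group means were in the order Parental, rABS, shCtrl and shAPE1, and shAPE1 overlapped shCtrl. It was not called in any of the 3 comparisons: the log2 fold change was -0.56 ± 0.29 in rABS against Parental, -0.42 ± 0.30 in shCtrl against rABS, and -0.40 ± 0.33 in shAPE1 against shCtrl. The first was called without Parental replicate 1, at -0.72. Beyond these 3 comparisons, ARRDC4 was called as lower in shAPE1 than in Parental (-1.38 ± 0.31) and in rABS (-0.82 ± 0.32). It was also called as lower in shCtrl than in Parental (-0.98 ± 0.29).

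**Figure D2:**
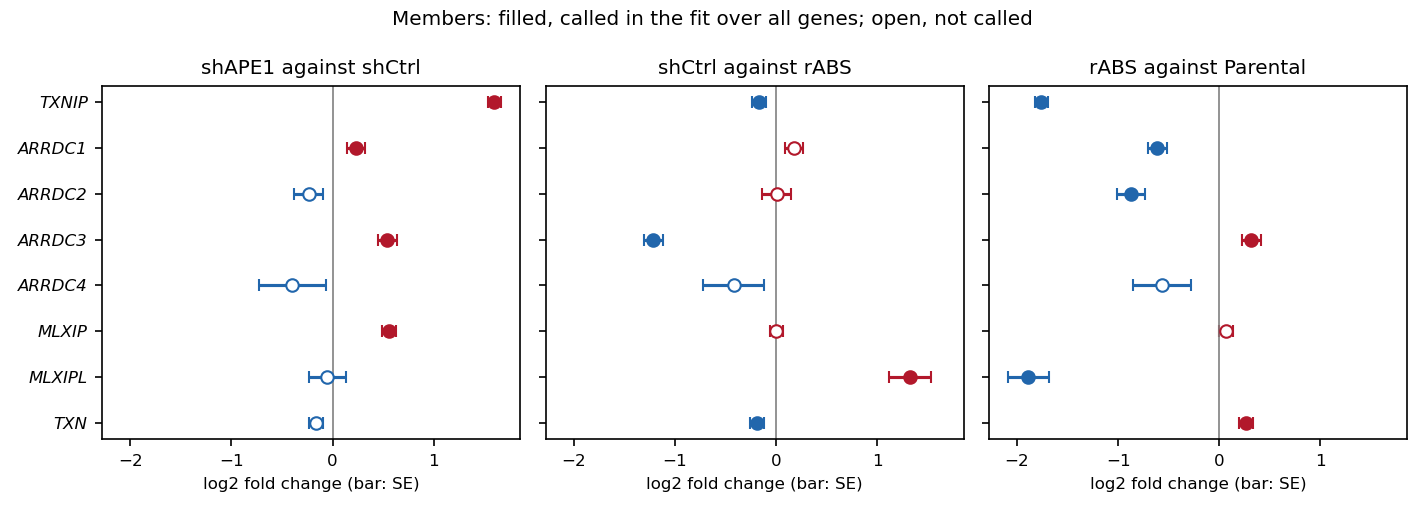
Log2 fold change of each of the 8 genes (points) with its SE (bars) in 3 comparisons; filled points were called in edgeR's test over all genes, open points were not. TXNIP lies at 1.60 in shAPE1 against shCtrl and at -1.76 in rABS against Parental, ARRDC4 lies below 0 in all 3 panels, and ARRDC3 and MLXIPL have values beyond 1 in size in shCtrl against rABS.

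Of the glucose sensors, MLXIP was the abundant one. This gene (chr12:122078722-122147347, plus strand) encodes MondoA, which sits at the outer mitochondrial membrane and moves to the nucleus on hexose phosphates. It had 263, 276 and 253 CPM in shAPE1, 166, 194 and 179 CPM in shCtrl, 183, 175 and 179 CPM in rABS, and 176, 175 and 162 CPM in Parental. The 3 shAPE1 libraries stood above all 9 others, which overlapped. MLXIP rose to 264 ± 11.6 CPM in shAPE1, against 179.6 ± 14.1 CPM in shCtrl (log2 0.56 ± 0.07). It was not called in rABS against Parental, at 0.07 ± 0.07, or in shCtrl against rABS, at 0.01 ± 0.07. TXNIP was 3.38-fold lower in rABS than in Parental, where MLXIP RNA was not called as different. In shAPE1 against shCtrl both rose, TXNIP by 1.60 ± 0.07 on the log2 scale. A link between the levels of MLXIP and TXNIP was not tested.

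MLXIPL, the ChREBP gene (chr7:73593194-73624543, minus strand), was scarce, at 1.13 RPKM in shAPE1 against 19.0 RPKM for MLXIP. It had 5.07, 5.29 and 5.94 CPM in shAPE1, 4.23, 6.41 and 6.12 CPM in shCtrl, 1.65, 2.33 and 2.67 CPM in rABS, and 9.69, 7.81 and 7.37 CPM in Parental. Parental was the highest, rABS the lowest, and both groups with a hairpin lay between them and overlapped. MLXIPL fell to 2.22 ± 0.519 CPM in rABS, against 8.29 ± 1.23 CPM in Parental (log2 -1.89 ± 0.20). It rose by 1.33 ± 0.21 in shCtrl against rABS and was not called between shAPE1 and shCtrl, at -0.05 ± 0.18. Against rABS cells with no hairpin, shAPE1 was higher, at 1.28 ± 0.21. TXNIP differed little between shCtrl and rABS, at -0.17 ± 0.07, and a link between the levels of MLXIPL and TXNIP was not tested.

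The 5 genes whose log2 CPM followed TXNIP most closely over the 12 libraries, of 10981 genes with a mean of at least 5 CPM in a group, were LAMC1, ZFYVE1, B3GNT5, NEU1 and NKIRAS2. Pearson's r was 0.989 for LAMC1, which encodes the laminin gamma 1 chain, and 0.986 for ZFYVE1, a phosphoinositide-binding FYVE-domain protein. It was 0.984 for the glycosyltransferase gene B3GNT5, 0.982 for NEU1, the lysosomal sialidase, and 0.980 for NKIRAS2, a Ras-like inhibitor of NF-kappa B signalling. By this choice, all 5 were high in shAPE1 and Parental and low in shCtrl and rABS. NEU1, for example, averaged 146 ± 5.58 CPM in shAPE1, 76.3 ± 1.18 CPM in shCtrl, 83.0 ± 2.65 CPM in rABS and 142 ± 4.69 CPM in Parental. The r values describe 4 groups of replicates rather than 12 independent states. They do not give the size of a change: LAMC1 averaged 573 ± 28.6 CPM in shAPE1 and 378 ± 9.86 CPM in shCtrl.

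MLX and the network it shares with MAX were taken next: 7 genes, all measured. MLX is the obligate partner of MLXIP and MLXIPL, MXD1, MXD4 and MNT are repressors that pair with MLX or with MAX, and MXI1 and MXD3 pair with MAX. In rABS against Parental 1 of the 7 rose, 4 fell and 2 were not called, with a median log2 fold change of -0.53, beside -0.01 over all genes tested. In shAPE1 against shCtrl 3 rose, 1 fell and 3 were not called, with a median of 0.08, beside -0.02 over all genes. In shCtrl against rABS 2 rose, 2 fell and 3 were not called, with a median of -0.21, beside 0.02 over all genes. Over all genes tested, 59.8%, 36.6% and 36.5% were called in these comparisons, in that order. No list was tested against these shares.

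MXD1 fell most in the exposed cells, with 21.6, 24.1 and 19.3 CPM in shAPE1, 40.4, 37.8 and 38.6 CPM in shCtrl, 39.9, 34.6 and 43.5 CPM in rABS, and 190.2, 223 and 204 CPM in Parental. It was 5.23-fold lower in rABS than in Parental (log2 -2.39 ± 0.09, edgeR adjusted p = 6.02e-21) and lower again in shAPE1 than in shCtrl (log2 -0.84 ± 0.09, edgeR adjusted p = 1.07e-08). MXD4 instead was high in shAPE1 and Parental and low in shCtrl and rABS, with 43.0, 50.5 and 40.8 CPM in shAPE1, 14.9, 17.7 and 18.7 CPM in shCtrl, 19.7, 21.2 and 19.0 CPM in rABS, and 49.1, 38.4 and 44.1 CPM in Parental. The shAPE1 and Parental libraries of MXD4 overlapped and lay above the other 6. Its log2 fold change was -1.13 ± 0.11 in rABS against Parental (edgeR adjusted p = 8.31e-11) and 1.38 ± 0.11 in shAPE1 against shCtrl (edgeR adjusted p = 4.98e-12).

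MNT fell by 1.04 ± 0.10 on the log2 scale in rABS against Parental and rose by 0.33 ± 0.10 in shAPE1 against shCtrl, a call lost without shCtrl replicate 1 (0.26). MXI1 fell by 0.53 ± 0.08 in rABS against Parental. MAX, the partner of MYC, rose in both, by 0.62 ± 0.08 in rABS against Parental and by 0.61 ± 0.08 in shAPE1 against shCtrl. MLX itself averaged 61.3 ± 2.96 CPM in shAPE1, 58.1 ± 3.85 CPM in shCtrl, 74.3 ± 3.24 CPM in rABS and 71.1 ± 4.45 CPM in Parental. Of the 3 comparisons it was called in 1, between shCtrl and rABS, where it fell by 0.36 ± 0.08 on the log2 scale (edgeR adjusted p = 4.64e-04). MXD3, with group means between 3.81 and 4.67 CPM, was not called in any of the 3.

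**Figure D3:**
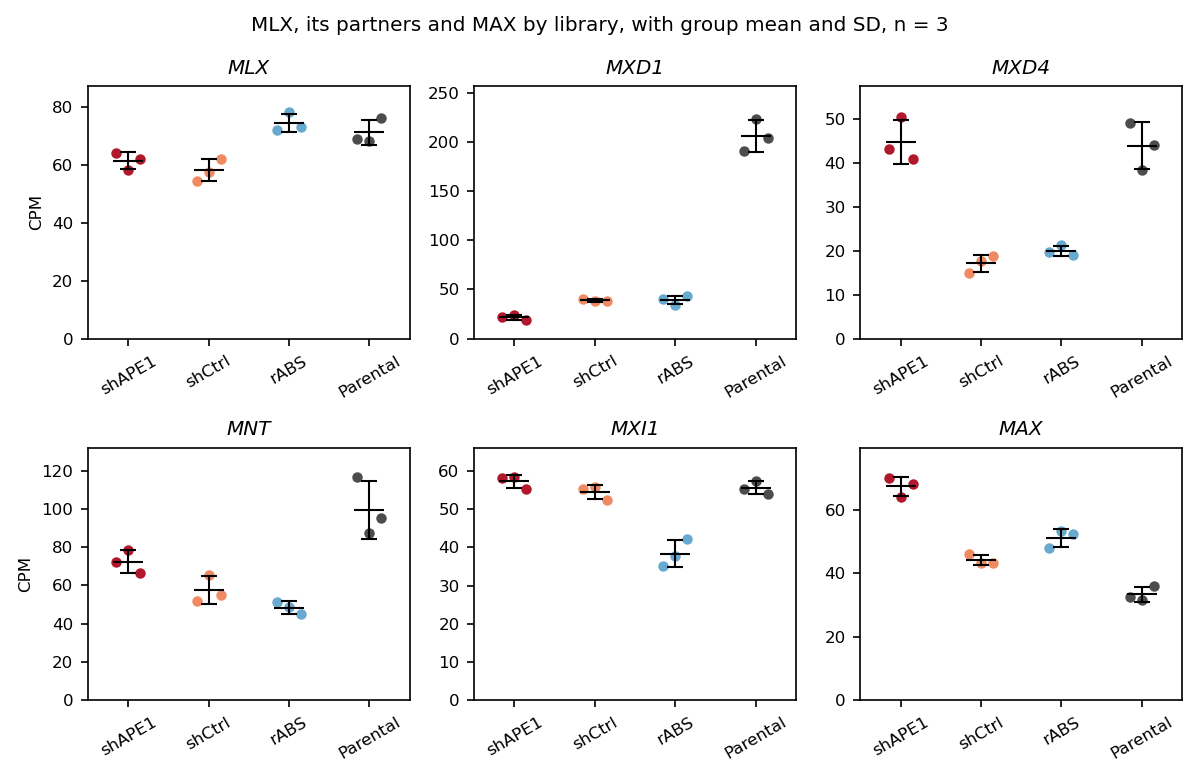
Level in CPM (linear axis from 0) of MLX, 4 of the repressors and MAX in every library, by group; points are libraries, bars the mean and whiskers the SD (n = 3). MXD4 is high in shAPE1 and Parental as TXNIP is, and MXD1 is highest in Parental (206 CPM) and lowest in shAPE1 (21.7 CPM).

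Other known targets of ChREBP and MondoA, mostly genes of glycolysis and lipid synthesis, moved in both directions. Of these, 16 had enough counts to be tested. Setting rABS against Parental, 7 rose, 4 fell and 5 were not called (median log2 fold change 0.13). Setting shAPE1 against shCtrl, 6 rose, 1 fell and 9 were not called (median 0.10). Setting shCtrl against rABS, 9 rose, 5 fell and 2 were not called (median 0.24). Of all genes tested, 59.8%, 36.6% and 36.5% were called in that order, with medians of -0.01, -0.02 and 0.02.

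FASN, the fatty acid synthase, was higher in rABS than in Parental, at 959 ± 30.7 CPM against 451 ± 52.7 CPM (log2 1.09 ± 0.07, edgeR adjusted p = 2.44e-14), and rose again by 0.46 ± 0.07 in shAPE1 against shCtrl. SCD, the stearoyl-CoA desaturase, had 2183 ± 57.2 CPM in shAPE1 against 1219 ± 10.4 CPM in shCtrl (log2 0.84 ± 0.06), and was already 1.07 ± 0.06 higher in shCtrl than in rABS. KHK, the fructokinase, rose to 9.26 ± 1.56 CPM in rABS, against 1.09 ± 0.284 CPM in Parental (log2 3.09 ± 0.23). In the other comparisons KHK fell, by 0.95 ± 0.18 in shCtrl against rABS and by 0.55 ± 0.20 in shAPE1 against shCtrl. The last call was lost in 3 of 20 alternatives. ME1, malic enzyme, fell by 0.89 ± 0.08 in rABS against Parental, while ACLY, which makes acetyl-CoA for lipid synthesis, rose by 0.49 ± 0.06 and the elongase ELOVL6 by 0.69 ± 0.09. ACACA, acetyl-CoA carboxylase, rose by 0.34 ± 0.07 in shAPE1 against shCtrl. KLF10, a transcription factor, fell by 0.73 ± 0.08 in shCtrl against rABS. PFKFB2, an enzyme that sets fructose 2,6-bisphosphate, fell by 0.92 ± 0.08 in rABS against Parental. PFKFB3, its close relative, rose by 0.70 ± 0.07 in shAPE1 against shCtrl, but against rABS with no hairpin its value was -0.19. G6PC3, a widely expressed glucose-6-phosphatase, rose by 0.54 ± 0.08 in shAPE1 against shCtrl and by 0.61 ± 0.09 in rABS against Parental.

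Glucose transporters and hexokinases, which set the hexose phosphate that MondoA senses, were taken as a list in which 10 genes had enough counts to be tested. After the exposure, 4 of the measured genes rose, 4 fell and 2 were not called in rABS against Parental, with a median log2 fold change of 0.29. With the hairpin, 3 rose, 2 fell and 5 were not called in shAPE1 against shCtrl, with a median of 0.17. The vector comparison, shCtrl against rABS, had 4 that rose, 2 that fell and 4 not called, with a median of 0.31. The shares called over all genes tested were 59.8%, 36.6% and 36.5%, and the medians -0.01, -0.02 and 0.02.

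SLC2A1 encodes GLUT1, the transporter that TXNIP is known to remove from the cell surface. It had 374, 399 and 388 CPM in shAPE1, 337, 344 and 339 CPM in shCtrl, 457, 453 and 442 CPM in rABS, and 373, 353 and 383 CPM in Parental. The rABS libraries were the highest and the shCtrl libraries the lowest, and shAPE1 overlapped Parental. SLC2A1 rose by 0.29 ± 0.06 on the log2 scale in rABS against Parental (edgeR adjusted p = 1.63e-04) and fell by 0.41 ± 0.06 in shCtrl against rABS. In shAPE1 SLC2A1 was 0.19 ± 0.06 higher than in shCtrl, a call lost in 3 of 20 alternatives, among them those without shCtrl replicate 1 or 3 (both 0.18), and against rABS with no hairpin it was -0.22.

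SLC2A3, the high-affinity transporter GLUT3, summed to 123 counts over the 3 rABS libraries and was nearly absent from Parental, with 3, 2 and 0 counts in its libraries. It had 28.8, 27.8 and 27.1 CPM in shAPE1, 7.61, 6.91 and 9.21 CPM in shCtrl, and 2.33, 1.75 and 2.62 CPM in rABS. No groups overlapped, and the level was highest in shAPE1, next in shCtrl, then in rABS. SLC2A3 was 3.54-fold higher in shAPE1 than in shCtrl (log2 1.82 ± 0.14, edgeR adjusted p = 4.56e-12) and higher in shCtrl than in rABS (log2 1.81 ± 0.18, edgeR adjusted p = 2.49e-09). Since Parental held 5 counts in all, no fold is given against it.

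Of the other measured transporters, SLC2A8 and SLC2A6 rose in rABS against Parental, by 1.18 ± 0.14 and 0.75 ± 0.13 on the log2 scale, and SLC2A13, a carrier of myo-inositol, fell by 1.59 ± 0.20. None of these 3 was called between shAPE1 and shCtrl, at -0.08, 0.06 and 0.16. SLC2A10 fell by 0.78 ± 0.09 in rABS against Parental and by 0.49 ± 0.09 in shAPE1 against shCtrl, but against rABS with no hairpin its value was 0.057. SLC2A12 was called in 1 of the 3 comparisons, shCtrl against rABS, where it rose by 1.04 ± 0.20. SLC2A4, the insulin-responsive GLUT4, averaged 1.39 ± 0.166 CPM in shAPE1 and 1.19 ± 0.392 CPM in shCtrl and was not called in any.

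HKDC1, a hexokinase domain protein, followed the order of TXNIP, with 49.7, 58.1 and 59.3 CPM in shAPE1, 36.1, 33.1 and 34.6 CPM in shCtrl, 36.6, 37.6 and 40.4 CPM in rABS, and 119, 117 and 129 CPM in Parental. It fell by 1.67 ± 0.08 on the log2 scale in rABS against Parental (edgeR adjusted p = 9.33e-18) and rose by 0.68 ± 0.08 in shAPE1 against shCtrl (edgeR adjusted p = 5.39e-08). HK1, the housekeeping hexokinase, fell in both, by 0.42 ± 0.07 and by 0.91 ± 0.07. HK2, counted with the ChREBP and MondoA targets, fell by 0.45 ± 0.07 in rABS against Parental and rose by 0.31 ± 0.07 in shAPE1 against shCtrl. Thus 1 hexokinase of the 3 changed in the same direction in both comparisons, and 2 changed in opposite directions.

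The thioredoxin system around TXN was measured in all of its 23 listed genes: reductases, peroxiredoxins, glutaredoxins and related proteins. Of these, 7 rose, 8 fell and 8 were not called in rABS against Parental, with a median log2 fold change of -0.07. Between shAPE1 and shCtrl, 4 rose, 3 fell and 16 were not called, with a median of -0.02. Between shCtrl and rABS, 5 rose, 9 fell and 9 were not called, with a median of -0.13. All genes tested had 59.8%, 36.6% and 36.5% called in that order, with medians of -0.01, -0.02 and 0.02.

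TXNRD1, the cytosolic reductase that recharges thioredoxin, had 347, 316 and 339 CPM in shAPE1, 455, 441 and 455 CPM in shCtrl, 519, 541 and 542 CPM in rABS, and 1111, 1174 and 1196 CPM in Parental. No groups overlapped, and TXNRD1 fell in each comparison: by 1.12 ± 0.06 on the log2 scale in rABS against Parental (edgeR adjusted p = 2.56e-16), by 0.25 ± 0.06 in shCtrl against rABS and by 0.43 ± 0.06 in shAPE1 against shCtrl (edgeR adjusted p = 1.42e-06). SRXN1, sulfiredoxin, which rescues over-oxidised peroxiredoxins, fell by 1.09 ± 0.10 in rABS against Parental and again, with a similar value of -1.08 ± 0.11, in shAPE1 against shCtrl. NXN, nucleoredoxin, was 3.34 ± 0.15 higher on the log2 scale in rABS than in Parental, at 19.0 ± 1.78 CPM against 1.87 ± 0.202 CPM.

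Of the 6 peroxiredoxins, 3 rose and 3 fell in rABS against Parental. PRDX1, PRDX2 and PRDX4 rose by 0.67 ± 0.07, 0.77 ± 0.07 and 0.83 ± 0.09 on the log2 scale. PRDX3 fell by 0.37 ± 0.07, PRDX5 by 0.36 ± 0.10, and PRDX6 by 0.16 ± 0.06. The PRDX6 call was lost in 6 of 20 alternatives, among them those without Parental replicate 1 or 3 or rABS replicate 1 or 2 (-0.16 to -0.13). None of the 6 was called between shAPE1 and shCtrl, where their values lay between -0.06 and 0.16. The mitochondrial partners TXN2 and TXNRD2 rose together in shAPE1 against shCtrl, by 0.46 ± 0.08 and 0.61 ± 0.11, although TXNRD2 was at -0.05 against rABS with no hairpin. MAP3K5, the stress kinase ASK1 that reduced thioredoxin is known to hold inactive, fell by 0.57 ± 0.08 in rABS against Parental.

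Ubiquitin ligases of the NEDD4 family, which alpha-arrestins bring to their cargo, and their NDFIP activators were measured in 10 of 11 genes. HECW1, with at most 3 counts, was not tested. There were 1 that rose, 5 that fell and 4 not called in rABS against Parental, with a median log2 fold change of -0.33. Setting shAPE1 against shCtrl instead, 5 rose, 1 fell and 4 were not called, with a median of 0.22. For shCtrl against rABS the count was 4 that rose, 1 that fell and 5 not called, with a median of 0.12. Beside this list, 59.8%, 36.6% and 36.5% of all genes tested were called, with medians of -0.01, -0.02 and 0.02.

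ITCH, the ligase known to ubiquitinate TXNIP, averaged 247 ± 5.82 CPM in shAPE1, 191 ± 14.3 CPM in shCtrl, 151 ± 17.9 CPM in rABS and 309.8 ± 30.9 CPM in Parental. It fell by 1.03 ± 0.08 on the log2 scale in rABS against Parental (edgeR adjusted p = 7.27e-13) and rose by 0.37 ± 0.08 in shAPE1 against shCtrl (edgeR adjusted p = 3.72e-04). NEDD4 moved the same way, at -1.46 ± 0.10 and 0.47 ± 0.11. SMURF1 fell by 0.72 ± 0.06 in rABS against Parental and WWP2 rose by 0.49 ± 0.08 in shAPE1 against shCtrl. SMURF2 was the 1 gene that fell in shAPE1 against shCtrl, by 0.47 ± 0.08, but its value against rABS with no hairpin was 0.08. NEDD4L and WWP1 also rose in shAPE1 against shCtrl, by 0.22 ± 0.07 and 0.23 ± 0.08, calls that were lost in 5 of 20 alternatives each. These included the analyses without shCtrl replicate 1 or 3 or shAPE1 replicate 1 or 2 for NEDD4L (0.19 to 0.22), and without shCtrl replicate 1 or 2 or shAPE1 replicate 1 or 2 for WWP1 (0.21 to 0.22). The activator genes differed: NDFIP1 fell by 0.55 ± 0.07 and NDFIP2 rose by 0.53 ± 0.10 in rABS against Parental, and neither was called between shAPE1 and shCtrl, at 0.12 ± 0.07 and -0.15 ± 0.10. HECW2, below 1 CPM in the mean of every group, was not called in any comparison.

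Other proteins with an arrestin fold were measured in 6 of 9 listed genes. SAG, ARR3 and ARRDC5, the last itself an alpha-arrestin, had 8 counts or fewer in a library and were not tested. In rABS against Parental 3 rose and 3 fell, with a median log2 fold change of 0.02. In shAPE1 against shCtrl 3 rose, 0 fell and 3 were not called, with a median of 0.24. In shCtrl against rABS 1 rose, 0 fell and 5 were not called, with a median of 0.07. Calls over all genes tested were 59.8%, 36.6% and 36.5% in that order, with medians of -0.01, -0.02 and 0.02. ARRB1, beta-arrestin 1, averaged 64.1 ± 4.15 CPM in shAPE1, 35.2 ± 5.48 CPM in shCtrl, 35.7 ± 2.60 CPM in rABS and 15.4 ± 2.94 CPM in Parental. It rose by 1.22 ± 0.12 on the log2 scale in rABS against Parental (edgeR adjusted p = 1.18e-10) and by 0.86 ± 0.11 in shAPE1 against shCtrl (edgeR adjusted p = 8.61e-08). ARRB2, beta-arrestin 2, rose by 0.83 ± 0.10 in rABS against Parental. The retromer subunit VPS26B rose by 0.49 ± 0.09 in shAPE1 against shCtrl. RGP1, a trafficking factor, fell by 0.68 ± 0.07 and VPS26C by 0.46 ± 0.10 in rABS against Parental. VPS26A fell there by 0.24 ± 0.08, a call lost in 3 of 20 alternatives, those without Parental replicate 3 or rABS replicate 1 or 2 (-0.21 to -0.20). VPS26C was the 1 gene that rose in shCtrl against rABS, by 0.25 ± 0.10, a call lost in 12 of 20 alternatives. Among these were the analyses without Parental replicate 1 or 3, rABS replicate 1 or 3, shCtrl replicate 2 or 3, or shAPE1 replicate 1 or 3 (0.17 to 0.27).

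**Figure D4:**
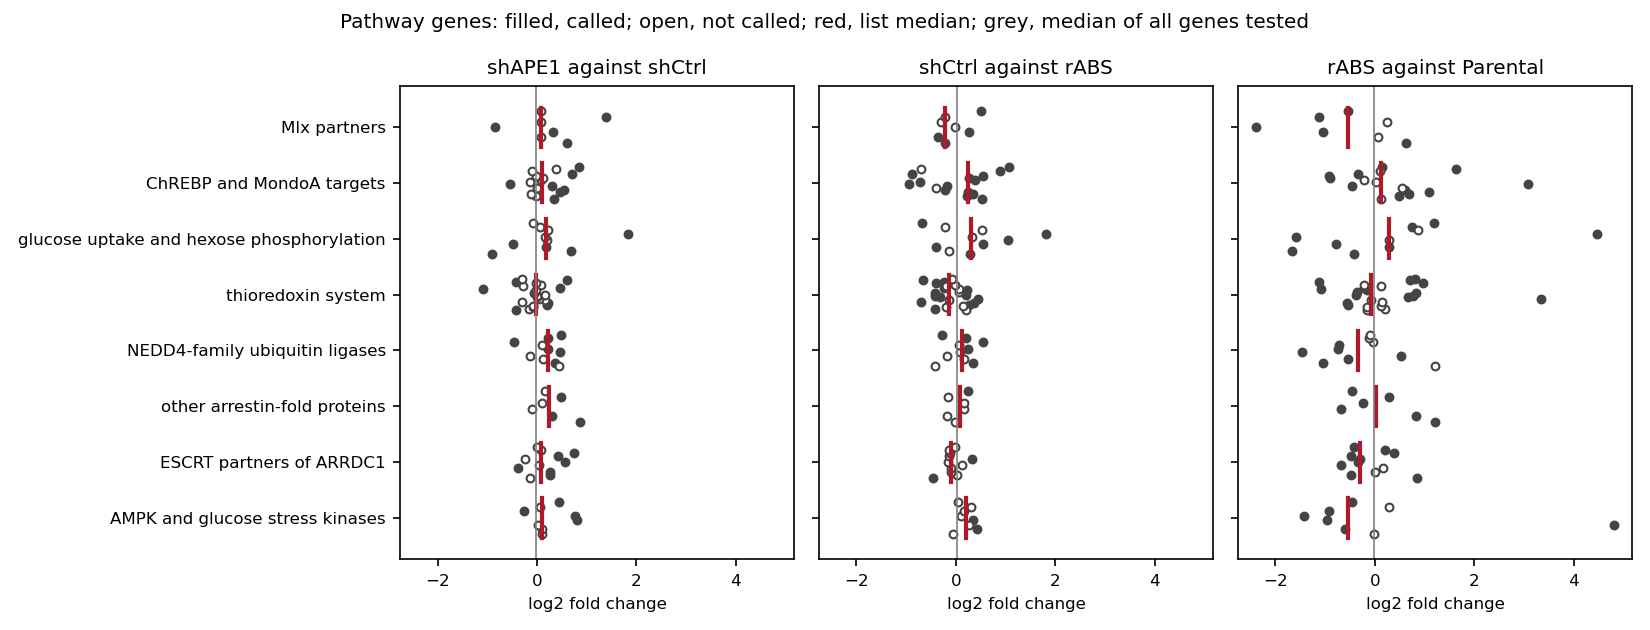
Log2 fold change of each measured gene of 8 pathway lists in 3 comparisons; filled points were called in edgeR's test over all genes, open points were not, the red bar is the median of the list and the grey line the median of all genes tested. The 2 points beyond 4 in rABS against Parental are SLC2A3 and PRKAA2, with 5 and 4 counts in Parental, so their fitted position depends on the prior count.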

How the data were processed

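RNA sequencing counts of 12 OE33 libraries (3 per group) were used. The authors deposited raw counts per Ensembl gene. Per the submitters' processing notes, Trimmomatic 0.36, STAR 2.5.2b, featureCounts of Subread 1.5.2 and the GRCh38 build were used. For the annotation release, strand setting and multi-mapping reads, nothing is stated (not given in the sources used here). Library totals of 15736087 to 23010377 counts set the precision.

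Genes were filtered with filterByExpr (minimum count 10, minimum total 15), scaled by TMM and tested in 1 robust quasi-likelihood fit of all 12 libraries with a term per group (edgeR 4.0.16, limma 3.58.1, R 4.3.3), adjusted by Benjamini-Hochberg over 15805 genes. The procedure was tested on simulated data. CPM used scaled library sizes, log2 CPM a prior count of 2, and RPKM the GENCODE 29 exon lengths. Promoters came from RefSeq.

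The 8 genes and the gene lists were chosen with earlier results of these data known. Named genes were the 8, APEX1, every measured gene of lists of up to 12, up to 6 per comparison by adjusted p in longer lists, and the 5 genes most correlated with TXNIP. Genes with paired half-sites, and examples beyond that rule in the longer lists, were chosen after their values were seen. Alternatives were RLE and upper-quartile scaling, no filter, CPM of at least 1 in 3 libraries, DESeq2 1.42.0, limma-voom, 6 libraries only, a replicate block, leaving out each library, and rABS as the control of shAPE1. An edgeR p-value sets the difference between groups against the spread between these libraries within their groups.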

Additional observations from a re-analysis of the deposited data

How the results depend on the processing

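With other scalings, other filters, DESeq2, limma-voom or the 6 libraries of a comparison alone, and without any 1 library, the counts of called genes stayed within 1.5 times. The 9454 calls in rABS against Parental ranged from 8875 to 9692 with a library left out, the 5784 in shAPE1 against shCtrl from 4779 to 5981, and the 5767 in shCtrl against rABS from 4650 to 6066. With rABS cells in place of shCtrl, 7896 genes were called. Without 1 library the APEX1 value in shAPE1 lay between -3.74 and -3.53 (log2). TXNIP lay between -1.79 and -1.72 in rABS against Parental and between 1.57 and 1.64 in shAPE1 against shCtrl. The labels do not say that replicate numbers mark a shared culture. The mean of its group was first subtracted from each gene's log2 CPM. These deviations correlated at -0.17 to 0.07 between same-numbered libraries of compared groups, which neither shows nor excludes a pairing by number. With the replicate block, 9266, 5485 and 5457 genes were called in the 3 comparisons, and the small calls of ARRDC1 in shAPE1 against shCtrl (0.23) and of TXNIP (-0.17) and TXN (-0.18) in shCtrl against rABS were lost.

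Among the alternatives run, a sign change that involved a call came only with rABS cells in place of shCtrl. The log2 values there were -0.67 for ARRDC3, 1.28 for MLXIPL, -0.28 for MLX, 0.20 for ACLY, 0.23 for ELOVL6, 0.53 for PFKFB2, -0.19 for PFKFB3, 0.79 for PNPLA3, -0.22 for SLC2A1, 0.057 for SLC2A10, -0.052 for TXNRD2, -0.32 for PRDX1, 0.21 for PRDX6 and 0.084 for SMURF2. The cause was not tested. With that control ARRDC4 and TXN were called as lower in shAPE1, at -0.82 and -0.35. Of 5584 alternative values for the listed genes and APEX1, 5362 stayed on their side of the threshold, with no called value among these changing sign. Of the rest, 157 lost the call, 53 gained one and 12 were the sign changes that involved a call. Values near 0 that were not called did change sign: MLXIPL in shAPE1 against shCtrl lay between -0.21 and 0.06 without 1 library, and in shCtrl against rABS ARRDC2 lay between -0.07 and 0.12 and MLXIP between -0.06 and 0.06.

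Limits: 3 libraries a group, 1 hairpin and 1 cell line. ARRDC4 and MLXIPL rest on 12 to 167 counts a library. RNA levels do not give protein levels, MondoA localisation or glucose uptake.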

Other observations

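AMPK, which phosphorylates TXNIP and marks it for destruction, was listed with its upstream kinases as 8 genes, all measured. Of these, 1 rose, 5 fell and 2 were not called in rABS against Parental, with a median log2 fold change of -0.53. The hairpin comparison, shAPE1 against shCtrl, had 3 that rose, 1 that fell and 4 not called, with a median of 0.11. In shCtrl against rABS 2 rose, 0 fell and 6 were not called, with a median of 0.21. For all genes tested the shares called were 59.8%, 36.6% and 36.5%, and the medians -0.01, -0.02 and 0.02. The beta subunit genes PRKAB1 and PRKAB2 fell in rABS against Parental and rose in shAPE1 against shCtrl. PRKAB1 averaged 73.3 ± 9.94 CPM in shAPE1, 42.1 ± 1.19 CPM in shCtrl, 33.2 ± 0.240 CPM in rABS and 65.1 ± 1.54 CPM in Parental (SD, n = 3 each), and also rose in shCtrl against rABS (log2 0.34 ± 0.09). PRKAB2 fell by 1.43 ± 0.13 on the log2 scale in rABS against Parental (edgeR adjusted p = 2.74e-11) and rose by 0.76 ± 0.13 in shAPE1 against shCtrl (edgeR adjusted p = 1.59e-05). STK11, the LKB1 kinase that activates AMPK, fell by 0.47 ± 0.10 and rose by 0.45 ± 0.10 in the same comparisons. PRKAA2, an alternative catalytic subunit, summed to 126 counts over the rABS libraries and to 4 over the Parental libraries. PRKAA1, which also encodes a catalytic subunit, fell by 0.60 ± 0.09 in rABS against Parental and rose by 0.42 ± 0.09 in shCtrl against rABS. PRKAG1 fell by 0.92 ± 0.09 in rABS against Parental and by 0.27 ± 0.09 in shAPE1 against shCtrl, the second call being lost without shCtrl replicate 1 or shAPE1 replicate 1 or 2 (values from -0.27 to -0.20) and, at -0.12, with rABS cells in place of shCtrl. PRKAG2 and CAMKK2 were not called in any of the 3 comparisons.

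The 11 listed ESCRT genes were all measured. The exposure comparison, rABS against Parental, had 3 that rose, 6 that fell and 2 not called, with a median log2 fold change of -0.29. Setting shAPE1 against shCtrl, 5 rose, 1 fell and 5 were not called, with a median of 0.07. In shCtrl against rABS 1 rose, 1 fell and 9 were not called, with a median of -0.10. Over all genes tested, 59.8%, 36.6% and 36.5% were called in that order, with medians of -0.01, -0.02 and 0.02. TSG101, the subunit that ARRDC1 binds, averaged 88.4 ± 3.11 CPM in rABS against 141 ± 8.55 CPM in Parental (log2 -0.67 ± 0.07, edgeR adjusted p = 2.19e-09) and was not called between shAPE1 and shCtrl, at 0.04 ± 0.07. VPS37C rose by 0.75 ± 0.09, VPS28 by 0.57 ± 0.09, VPS37B by 0.43 ± 0.07 and PDCD6IP, which encodes ALIX, by 0.25 ± 0.07 in shAPE1 against shCtrl. MVB12A rose there by 0.26 ± 0.10, a call lost in 9 of 20 alternatives, among them those without any 1 of the shCtrl libraries, shAPE1 replicate 1 or 2, rABS replicate 1 or Parental replicate 3 (0.14 to 0.28). STAM fell there by 0.37 ± 0.08. VPS4A rose by 0.21 ± 0.07 and VPS4B fell by 0.43 ± 0.09 in rABS against Parental. VPS37A fell by 0.29 ± 0.10 in rABS against Parental and rose by 0.33 ± 0.10 in shCtrl against rABS. The first call was lost without Parental replicate 2 or 3 or rABS replicate 1 or 2 (-0.26 to -0.22), and the second without rABS replicate 1 or shCtrl replicate 1 (both 0.28). HGS, an early ESCRT subunit, was higher in rABS than in Parental by 0.84 ± 0.07 on the log2 scale and lower in shCtrl than in rABS, at -0.47 ± 0.07.

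Of the 20 genes whose promoter held the paired half-sites in the form searched, which is that of TXNIP, 16 were measured, TXNIP among them. In rABS against Parental 5 rose, 8 fell and 3 were not called, beside 59.8% of all genes tested that were called. In shAPE1 against shCtrl 3 rose, 2 fell and 11 were not called, beside 36.6% of all genes tested that were called. These genes were looked at after the TXNIP values had been seen. STX12, an endosomal syntaxin, and KCTD5, a ubiquitin ligase adaptor, were the other 2 that fell in the first comparison and rose in the second. STX12 averaged 35.2 ± 3.94 CPM in shAPE1 against 22.4 ± 0.863 CPM in shCtrl, and 18.5 ± 3.53 CPM in rABS against 29.9 ± 3.52 CPM in Parental. GFPT1, the rate-limiting enzyme of hexosamine synthesis, fell to 64.6 ± 4.84 CPM in rABS, against 407 ± 28.8 CPM in Parental (log2 -2.66 ± 0.07, edgeR adjusted p = 6.24e-24). Unlike TXNIP, it was lower in shAPE1 than in shCtrl, at 56.4 ± 1.76 CPM against 87.8 ± 2.35 CPM (log2 -0.64 ± 0.07).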
